A study of Mus musculus with 32 samples.

Results

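The 53 genes described here are cell cycle and DNA replication genes of the mouse. They were chosen by gene symbol and matched by Ensembl identifier to 3 tables of estimated read counts with 74021, 74016 and 74021 genes. All 53 were present in each table and passed the filter on low counts, which left 16508, 18669 and 17702 genes for testing. By role they comprised 17 replication genes, 25 mitosis genes, 7 regulators of entry into S phase and 4 other genes, Mki67, Top2a, Hmgb2 and Stmn1. The replication genes were 13 that license or fire origins or run the fork and 4 that supply nucleotides. The mitosis genes were 6 cyclins, kinases and transcription factors of G2 and M phase, 8 mitotic kinases and checkpoint or degradation factors, 6 kinetochore genes and 5 spindle motors and midzone genes.

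Cells that divide make the replication genes first, under E2F transcription factors, and the mitosis genes later, under MYBL2, FOXM1 and the DREAM complex, which represses them in resting cells. Microglia, the resident macrophages of the central nervous system, divide slowly in the healthy cord and can proliferate in the SOD1G93A mouse. Immature cells of the neutrophil lineage also divide, whereas mature neutrophils do not, so that cell cycle transcripts in a sorted myeloid fraction need not come from microglia.

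RNA-seq covered 32 libraries in 3 experiments. In the first, CD45int/CD11b+ microglia were sorted by FACS from lumbar spinal cord, and those of SOD1G93A mice were split by surface LAG-3, an immune checkpoint receptor, giving 5 libraries of LAG-3-low and 5 of LAG-3-high cells beside 4 of WT microglia. In the second, unsplit microglia came from SOD1G93A mice that were LAG-3+/+ or LAG-3-/-, at postnatal day 120 (P120) or 140 (P140), with 3 libraries in each of the 4 groups. In the third, whole lumbar cord was taken at P140 from the same genotypes, with 3 libraries each. Both LAG-3 fractions were from P140 mice according to the study's methods, which describe the WT controls as non-transgenic littermates without giving their age. Every library outside the WT group carried the human mutant SOD1 transgene, including all LAG-3+/+ controls, and the LAG-3-/- mice carried a germline disruption that affects every cell type, not microglia alone. The cord groups are given as mice, while for the sorted libraries the sources used here do not say whether each was a separate animal, so that p-values there measure only the spread between these libraries, which may be technical.

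Libraries held 9403286 to 22850356 counts in the LAG-3-sorted experiment, 23981240 to 49512341 in the stage experiment and 19429873 to 26994340 in the cord. Levels are given as CPM, the counts of a gene scaled to a common library total after TMM correction for composition, and CPM values are compared between libraries and not between genes, since they are not divided by transcript length. Changes are log2 fold changes from edgeR's quasi-likelihood test with a standard error, and adjusted p-values are by Benjamini-Hochberg over all genes tested. A gene was called at an adjusted p under 0.1, together with an absolute log2 fold change over 1 in the LAG-3-sorted experiment and the cord. Groups are said not to overlap when every library of one lay beyond every library of the other.

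Lag3 itself followed the labels. It stood at 1.07, 6.87, 9.97 and 0.506 CPM in WT, at 42.8, 34.7, 38.6, 42.9 and 57.7 CPM in LAG-3-low and at 167, 163, 176, 146 and 195 CPM in LAG-3-high libraries. In microglia it was 62.9, 61.6 and 53.3 CPM in LAG-3+/+ and 0.163, 0.461 and 0.25 CPM in LAG-3-/- libraries at P120, and 28, 24.4 and 25.7 against 0.158, 0.0238 and 0.335 CPM at P140. In the cord it was 74.4, 43.4 and 61.3 CPM in LAG-3+/+ and 5.71, 5.58 and 5.5 CPM in LAG-3-/- libraries, a residual level. No pair set side by side here overlapped.

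On GRCm39, the build the study used, GENCODE vM39 places the 4 members that are given in every library as follows. It has Mki67 (ENSMUSG00000031004) at chr7:135291513-135318299 on the minus strand, Top2a (ENSMUSG00000020914) at chr11:98883769-98915062 on the minus strand, Pcna (ENSMUSG00000027342) at chr2:132091082-132095234 on the minus strand and Mcm5 (ENSMUSG00000005410) at chr8:75836140-75856231 on the plus strand.

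The 7 microglial markers Tmem119, P2ry12, Sall1, Cx3cr1, Csf1r, Aif1 and C1qa summed to between 8473 and 22537 CPM in every sorted library. Neutrophil transcripts were abundant in some of the same libraries. The summed level of 10 late neutrophil markers, among them Camp and S100a8, was 5931 to 70238 CPM in WT, 22359 to 64941 CPM in LAG-3-low and 3.47 to 9.59 CPM in LAG-3-high libraries. The 8 markers of neutrophil precursors summed to 0.203 to 2991 CPM in WT, 1694 to 5806 CPM in LAG-3-low and 0 to 0.676 CPM in LAG-3-high libraries, where 4 of the 8 were at 0 throughout. The 6 monocyte markers, which share Chil3 with the precursor list, summed to 51.1 to 2719 CPM in WT, 1716 to 5174 CPM in LAG-3-low and 393 to 989 CPM in LAG-3-high libraries. Endothelial markers summed to 8.08 to 41.1 CPM in WT, 40.7 to 77.8 CPM in LAG-3-low and 82.2 to 126 CPM in LAG-3-high libraries. Both of these sums mixed genes that moved in opposite directions. Between LAG-3-high and WT libraries the endothelial gene Flt1 was called higher, at 10.3 on the log2 scale, and Pecam1 lower, at -2.42. Of the monocyte markers Fn1 was called higher, at 5.43, and Ly6c2, Plac8, F13a1 and Chil3 lower, at -12.2, -7.8, -8.81 and -12.9. B-lineage markers lay between 6.53 and 161 CPM and T and NK cell markers between 0.0632 and 32.7 CPM in this experiment. Erythroid markers did not exceed 6.93 CPM in any sorted library. In bulk RNA of this kind, fewer cells of a type and less RNA per cell cannot be told apart.

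Promoter sequences are shown for 6 members, the 3 replication and the 3 mitosis genes that had an entry and the smallest adjusted p when the LAG-3 fractions were compared, because the 2 classes are known to use different promoter elements. The windows hold 120 bases before and 30 bases after the RefSeq start on GRCm38.p6, 5′ to 3′ on the strand of the gene. Mcm10 (chr2:5012762-5012911, minus strand), Cdc45 (chr16:18811943-18812092, minus strand) and Tyms (chr5:30073596-30073745, minus strand) are replication genes. Mybl2 (chr2:163054515-163054664, plus strand), Ndc80 (chr17:71526828-71526977, minus strand) and Kif11 (chr19:37376262-37376411, plus strand) are mitosis genes. Capitals mark a CCAAT box (CCAAT, or ATTGG on the other strand) or a cell cycle homology region, CHR (TTTGAA, which is TTCAAA on the other strand, or TTCGAA), lying wholly within the window.
Mcm10: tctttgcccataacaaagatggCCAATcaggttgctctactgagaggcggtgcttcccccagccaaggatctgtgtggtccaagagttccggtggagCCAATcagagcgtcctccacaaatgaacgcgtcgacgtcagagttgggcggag
Cdc45: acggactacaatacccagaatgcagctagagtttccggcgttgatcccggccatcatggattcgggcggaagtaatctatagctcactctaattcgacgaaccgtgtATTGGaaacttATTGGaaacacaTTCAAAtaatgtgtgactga
Tyms: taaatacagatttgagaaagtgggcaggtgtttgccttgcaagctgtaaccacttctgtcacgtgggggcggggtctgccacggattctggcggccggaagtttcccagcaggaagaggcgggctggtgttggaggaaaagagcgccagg
Mybl2: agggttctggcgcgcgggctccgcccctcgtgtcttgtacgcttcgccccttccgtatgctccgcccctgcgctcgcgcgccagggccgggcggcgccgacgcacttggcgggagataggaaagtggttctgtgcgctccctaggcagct
Ndc80: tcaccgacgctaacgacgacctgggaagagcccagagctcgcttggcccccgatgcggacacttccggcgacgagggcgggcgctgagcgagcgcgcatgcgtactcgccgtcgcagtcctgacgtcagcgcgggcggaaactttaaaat
Kif11: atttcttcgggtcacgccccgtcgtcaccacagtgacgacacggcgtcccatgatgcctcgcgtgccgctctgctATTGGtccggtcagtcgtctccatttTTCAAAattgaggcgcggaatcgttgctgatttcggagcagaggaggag

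The motifs were counted on both strands over the full RefSeq window, 250 bases before to 50 bases after each start, in which 42 of the 53 members and 27025 genes in all had an entry. A CHR was found in 14 of 19 mitosis members, 73.7%, in 3 of 14 replication members, 21.4%, and in 21.7% of all genes. An E2F motif, read as TTCCCGC, as TTGGCGC, as TTCGCGC or as TTGCCGC, was found in 8 of 14 replication members, 57.1%, in 2 of 19 mitosis members, 10.5%, and in 10.9% of all genes. The CCAAT box was found in 10 of 14 replication and 15 of 19 mitosis members, 71.4% and 78.9%, against 41.1% of all genes. Of the genes shown, Kif11 held a CHR and a CCAAT box upstream of its start, both read on the reverse strand, Cdc45 held a CHR and CCAAT boxes on the reverse strand around its start, Mcm10 held CCAAT boxes upstream, and Tyms and Mybl2 held neither motif in the window printed. In Ndc80 a CHR began at the last base of the window and is not in capitals. Spc24 and Ccna2, which are described next, had no entry. These matches describe letters and not bound sites.

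The first comparison asked how microglia with much surface LAG-3 differ from those with little in the same disease. The cell cycle genes that passed the test were lower in the LAG-3-high fraction. Of the 53 members, 6 were called lower and none higher, against 3.49% of all genes called in either direction and 2.67% called lower. The 6 were Hmgb2, which encodes a chromatin protein abundant in dividing cells, the S phase regulators E2f7 and Ccne2, the transcription factor Mybl2, the kinetochore gene Spc24 and the cyclin gene Ccna2. In all, 51 members had a negative log2 fold change, with a median of -2.52 over the 53, against -0.02 over all genes tested. The groups did not overlap for 13 members, all lower in LAG-3-high microglia, against 6.47% of all genes.

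Hmgb2 stood at 366, 618, 465, 499 and 98 CPM in LAG-3-low and at 23.7, 24.6, 20.2, 29.7 and 24.5 CPM in LAG-3-high libraries. The LAG-3-high libraries lay close together and below every LAG-3-low library, of which the fifth was lowest. The log2 fold change was -4.06 (SE 0.49, edgeR adjusted p = 0.00039). E2f7, which represses E2F targets late in S phase, was 10.9, 21.5, 19.4, 12.1 and 1.22 CPM in LAG-3-low and 0.169, 0.133, 0.369, 0 and 0.211 CPM in LAG-3-high libraries. It was near 0 in every LAG-3-high library, and fell by 6.14 on the log2 scale (SE 1.31, edgeR adjusted p = 0.019). Mybl2, an activator of G2 and M phase genes, was 6.14, 15.8, 14.5, 17.8 and 2.18 CPM in LAG-3-low and 0, 0.133, 0.0615, 0 and 0 CPM in LAG-3-high libraries, with a log2 fold change of -7.94 (SE 1.72, edgeR adjusted p = 0.0199). The size of such a fitted change depends on values close to 0.

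Spc24, a subunit of the NDC80 complex that ties kinetochores to microtubules, was 22.8, 29.6, 25.3, 23.5 and 6.53 CPM in LAG-3-low and 2.53, 2.6, 2.64, 8.01 and 2.96 CPM in LAG-3-high libraries. The groups overlapped only through LAG-3-low replicate 5 and LAG-3-high replicate 4. Its log2 fold change was -2.52 (SE 0.55, edgeR adjusted p = 0.0209). Ccna2, which encodes cyclin A2 of S and G2 phase, was 47.5, 88.4, 38.5, 61.7 and 6.13 CPM in LAG-3-low and 1.8, 8.07, 0.922, 8.43 and 1.27 CPM in LAG-3-high libraries, a log2 fold change of -3.56 (SE 0.88, edgeR adjusted p = 0.0408). For Ccna2 the fifth LAG-3-low library was below 2 of the LAG-3-high libraries. Ccne2, for cyclin E2 of the G1 to S transition, was 60.9, 89.2, 63.5, 52.7 and 18.4 CPM in LAG-3-low and 4.0, 0.20, 1.41, 2.2 and 1.41 CPM in LAG-3-high libraries, without overlap, a log2 fold change of -4.94 (SE 1.40, edgeR adjusted p = 0.0818).

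The proliferation markers Mki67 and Top2a were not called. Mki67 was 71.5, 95.6, 42.8, 106 and 13.1 CPM in LAG-3-low and 0, 21.1, 0.369, 12.2 and 1.97 CPM in LAG-3-high libraries, a log2 fold change of -3.21 (SE 1.55, edgeR adjusted p = 0.438). Top2a, for the topoisomerase that untangles sister chromatids, was 85, 175, 96.3, 123 and 10.4 CPM in LAG-3-low and 1.41, 27.9, 0, 31.3 and 8.45 CPM in LAG-3-high libraries, a log2 fold change of -2.83 (SE 1.59, edgeR adjusted p = 0.555). For both, the first 4 LAG-3-low libraries exceeded every LAG-3-high library, while the fifth lay within the LAG-3-high range. Within the LAG-3-high fraction replicates 2 and 4 were the highest for both genes.

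The replication genes had a smaller median change than the mitosis genes. By edgeR none of the 17 was called, 8 had an unadjusted p under 0.05, and their median log2 fold change was -1.35, against -2.57 over the 25 mitosis genes, of which 3 were called and all 25 were negative. The groups did not overlap for 6 replication genes and for 2 mitosis genes. Mcm5, a subunit of the replicative helicase, was 42.8, 62.2, 78.4, 76.4 and 33.7 CPM in LAG-3-low and 14.6, 15.3, 14.9, 17 and 14.6 CPM in LAG-3-high libraries, a log2 fold change of -1.94 (SE 0.62, edgeR adjusted p = 0.136). The LAG-3-high libraries were nearly level for this gene. Pcna, the sliding clamp of the fork, which also serves DNA repair, was 62.8, 113, 82.2, 112 and 74.6 CPM in LAG-3-low and 83.1, 64.9, 83.8, 94.3 and 66.7 CPM in LAG-3-high libraries, a log2 fold change of -0.18 (SE 0.34). The ranges of Pcna lay over one another. Among the other abundant replication genes, log2 fold changes were -0.34 for Mcm3, -1.19 for Rrm1 and -5.01 for Rrm2, the last 2 being subunits of ribonucleotide reductase, and none was called. Among abundant mitosis genes the values were -1.95 for Ccnb1, -2.32 for Ccnb2, -2.14 for Cdc20, -2.7 for Birc5, -3.07 for Spc25, -1.76 for Cenpe, -2.42 for Prc1 and -3.95 for Kif11, again without a call. Cdk2 and Stmn1 stood at -1.14 and -1.34, also without a call.

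The 2 members that were not negative were E2f1, at 0.38, and Gins2, at 0.25. E2f1 was 14.3, 9.63, 11, 11.6 and 11.4 CPM in LAG-3-low and 19.2, 14.9, 12.7, 8.86 and 19.6 CPM in LAG-3-high libraries. The groups overlapped, and this activator of S phase genes was not called.

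**Figure D1:**
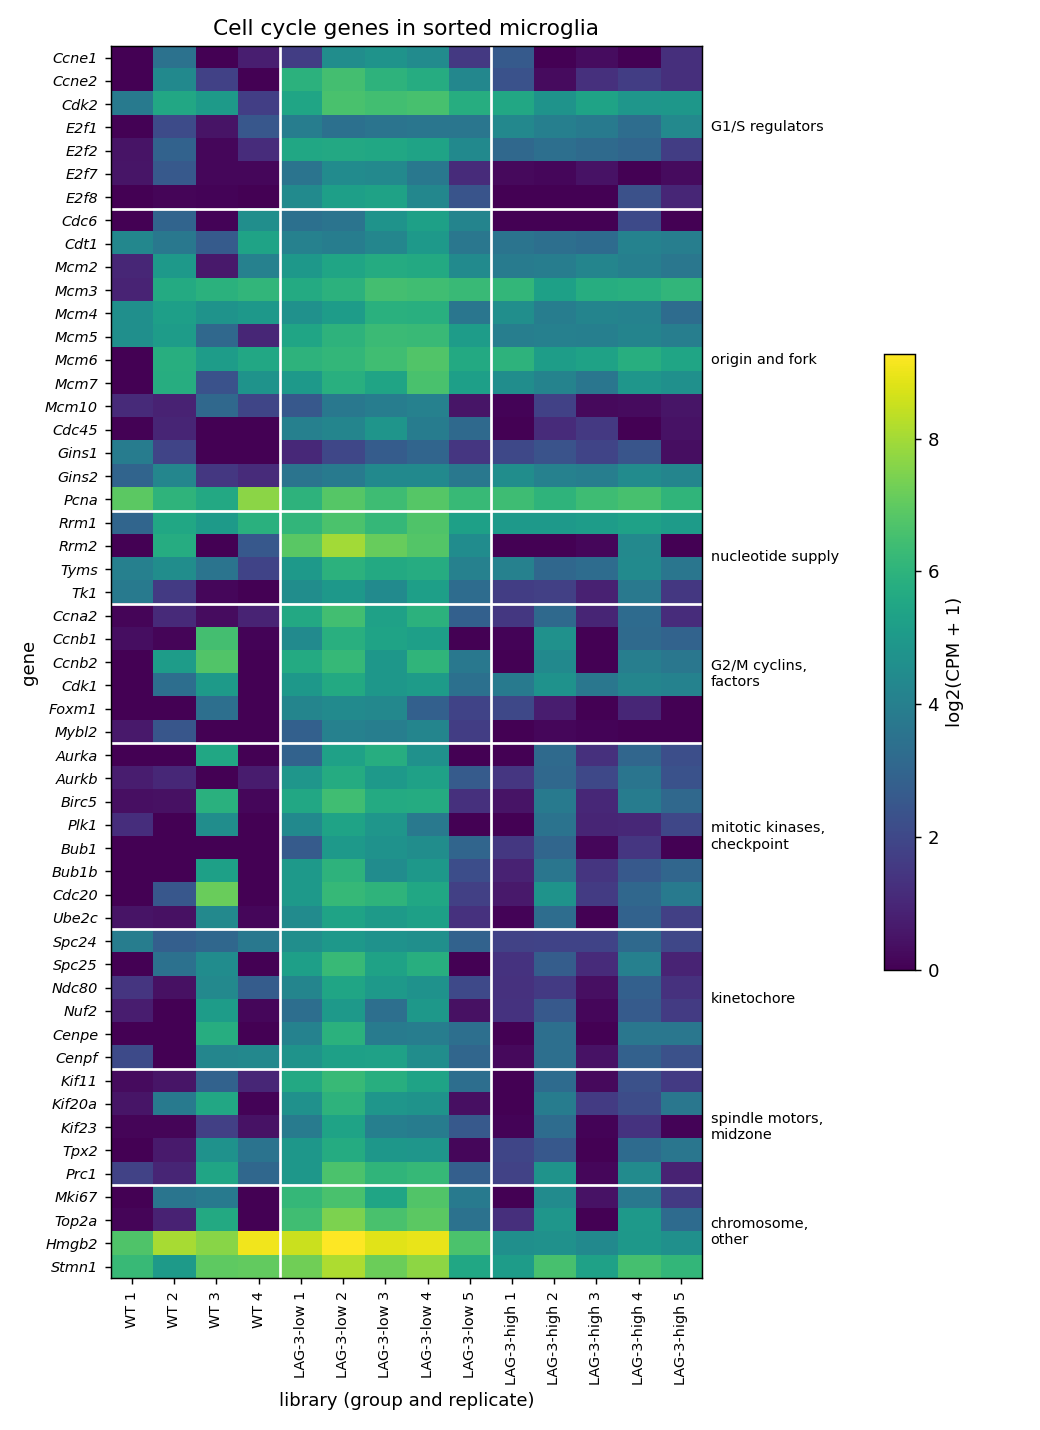
Level of each of the 53 genes, one row per gene, in the 14 LAG-3-sorted libraries, one column per library, with colour giving log2(CPM + 1). The first 4 LAG-3-low libraries are the most uniformly high, and of the WT libraries replicate 3 stands out for its mitosis genes.

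The count of called members depended on the libraries and the fit. It was 36 when only the 10 libraries of the LAG-3 fractions were fitted, a fit that called 7.67% of all genes lower, and 20 with DESeq2, which called 4.91% lower. It was 13, 12, 12 and 15 without WT replicates 1, 2, 3 and 4, and 11 without LAG-3-low replicate 5. The direction was lower for every member called in these fits. Without TMM scaling, which shifts the median of all genes to -0.40, 16 members were called lower.

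The neutrophil markers moved with this comparison in full, as given above, and their part in it was not tested. The precursor list summed to 2760, 5806, 4691, 4551 and 1694 CPM in LAG-3-low and to 0, 0.20, 0.676, 0.0709 and 0 CPM in LAG-3-high libraries. LAG-3-low replicate 5 was the lowest in this sum, as it was for Mki67, Top2a and the 6 called members. Camp was 2142, 3999, 4747, 4360 and 1940 CPM in LAG-3-low libraries and 0, 0, 0.246, 0 and 0 CPM in LAG-3-high libraries. The early granule genes Elane and Mpo were at 0, 299, 0, 115 and 19.8 and at 0.183, 451, 1.8, 162 and 0.174 CPM in the LAG-3-low libraries. In LAG-3-high libraries Elane was 0 throughout and S100a8 was 1.01, 0.40, 0.922, 0 and 0.0704 CPM.

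**Figure D2:**
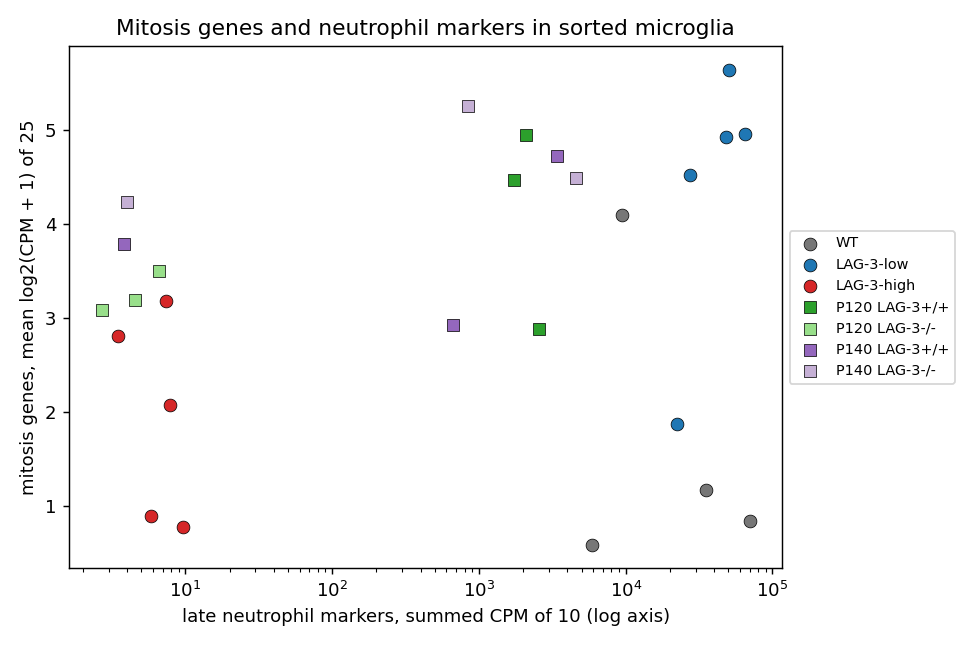
Mean log2(CPM + 1) of the 25 mitosis genes against the summed CPM of 10 late neutrophil markers on a log axis, with one point for each sorted library. The LAG-3-high libraries lie at 3.47 to 9.59 CPM of neutrophil markers with mitosis means of 0.78 to 3.18, and libraries with neutrophil sums above 5931 CPM range from 0.59 to 5.64.

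LAG-3-low microglia were next compared with WT microglia, and every member that was called was higher. Of the 53 members, 13 were called higher and none lower, against 21.9% of all genes called and 10.9% called higher, and 50 were positive with a median log2 fold change of 1.68. The groups did not overlap for 10 members, all higher, against 9.78% of all genes. By role, 5 of 7 S phase regulators, 5 of 25 mitosis genes and 3 of 17 replication genes were called. Ccna2 was 0.102, 1.13, 0.225 and 0.885 CPM in WT, below every LAG-3-low library, a log2 fold change of 6.39 (SE 1.12, edgeR adjusted p = 0.00253). Aurkb, the kinase of the chromosomal passenger complex, was 0.66, 1.04, 0 and 0.632 CPM in WT and 28.3, 50.7, 31.2, 39 and 5.35 CPM in LAG-3-low libraries, a log2 fold change of 5.72 (SE 1.07, edgeR adjusted p = 0.00352). WT libraries were near 0 for both genes. Bub1, a spindle checkpoint kinase, was at 0 in all 4 WT libraries and at 5.4, 30.6, 25.4, 22.3 and 7.09 CPM in LAG-3-low libraries, at least 94.1-fold higher against a floor of 3 counts per library. Among S phase regulators, E2f8 rose by 9.25 on the log2 scale (SE 2.06, edgeR adjusted p = 0.00893) and E2f2 by 4.26 (SE 0.96, edgeR adjusted p = 0.00936). The other called members were Cdc45, Kif11, Tyms, Kif23, E2f1, Cdk2, Mcm5 and E2f7, with log2 fold changes between 1.67 and 6.09.

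Some neutrophil and monocyte markers were also higher in this comparison. Of the 10 late neutrophil markers, 3 were called higher in LAG-3-low microglia, Mmp8 at 8.07, Retnlg at 5.71 and Cxcr2 at 2.01 on the log2 scale. Camp and S100a8 were at -0.38 and -0.15, and S100a9, Ngp, Lcn2, Ltf and Mmp9 at 0.06, 0.64, 1.07, 2.18 and 2.59, none called. The late sums overlapped, at 5931 to 70238 CPM in WT and 22359 to 64941 CPM in LAG-3-low libraries. Of the 8 precursor markers, 6 were tested and 1 was called higher, Cebpe at 3.47. Of the 6 monocyte markers 2 were, Fn1 at 5.03 and Ly6c2 at 1.52, against 10.9% of all genes called higher. None of these lists held a gene called lower. The precursor sum was 0.203, 2991, 410 and 1349 CPM in the WT libraries and at least 1694 CPM in every LAG-3-low library, and the part of these cells in the members' changes was not tested.

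The most abundant members were mostly not called between LAG-3-low and WT. The log2 fold changes were -0.30 for Pcna, 0.70 for Mcm3, 1.1 for Rrm1, 3.18 for Rrm2, 0.57 for Hmgb2 and 0.86 for Stmn1. For mitosis genes they were 0.46 for Ccnb1, 0.38 for Ccnb2, 0.25 for Cdc20, 1.68 for Birc5, 2.39 for Spc25, 0.72 for Cenpe and 2.04 for Prc1. Mki67 was 0, 11.2, 13.1 and 0 CPM in WT libraries, the highest of them close to the lowest LAG-3-low library, a log2 fold change of 3.44 that was not called (SE 1.71, edgeR adjusted p = 0.184). Top2a was 0.102, 0.869, 48.9 and 0 CPM in WT libraries, where the third stood apart from the others, a log2 fold change of 2.97 that was not called (SE 1.75, edgeR adjusted p = 0.262). Without WT replicate 3 it was 8.36 and Top2a was called higher. Pcna was 122, 64.7, 47.4 and 203 CPM and Mcm5 23.3, 34.2, 7.72 and 1.01 CPM in WT libraries, and both spread widely. Between 11 and 24 of the 53 members had 3 counts or fewer in each WT library, against 0 in the first 4 LAG-3-low libraries and 5 in the fifth. The call count was 20 without WT replicate 2, 22 without WT replicate 3, 7, 8 and 8 without LAG-3-low replicates 2, 3 and 4, and 8 with only the 2 groups fitted, where 11.1% of all genes were called.

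Between LAG-3-high and WT microglia members were called in both directions, in each less often than all genes. Of the 53 members, 5 were called higher and 4 lower, against 27.0% of all genes called, 12.1% higher and 14.9% lower. The members called higher were the activator E2f1, E2f8, Ccna2, Aurkb and Bub1, and those called lower were Hmgb2, Mybl2, E2f7 and Spc24. E2f1 was 0.0508, 3.3, 0.394 and 4.74 CPM in WT, below every LAG-3-high library, a log2 fold change of 2.83 (SE 0.89, edgeR adjusted p = 0.0367). Aurkb was 1.74, 7.73, 3.07, 11.1 and 4.01 CPM in LAG-3-high libraries, above every WT library, a log2 fold change of 3.24 (SE 0.95, edgeR adjusted p = 0.0277). Both were low in WT libraries. Bub1 was 1.8, 7.33, 0.123, 1.77 and 0 CPM in LAG-3-high libraries, at least 11.4-fold higher in the mean than the floor of 3 counts per WT library, though the fifth library was at 0 as WT was. Hmgb2 was 104, 265, 198 and 537 CPM in WT, above every LAG-3-high library, and fell by 3.49 on the log2 scale (SE 0.49, edgeR adjusted p = 0.000276). The remaining called changes were 4.65 for E2f8, 2.82 for Ccna2, -4.78 for Mybl2, -2.95 for E2f7 and -1.42 for Spc24. E2f7 and Spc24 each kept their call in only 4 of the 14 fits that left out 1 library, E2f8 in 9, Ccna2 in 11 and Mybl2 in 13. E2f8 was at 0 in 3 of the 5 LAG-3-high libraries and at most 0.0869 CPM in WT. Mki67, at 0.23, Top2a, at 0.14, Pcna, at -0.48, and Mcm5, at -0.12, were not called, and their sign turned in some alternative fits. Without WT replicate 3, Top2a was at 5.54 and was called higher. Of the 17 replication genes 0 were called by edgeR and 0 had an unadjusted p under 0.05. The call count was 15 without WT replicate 3, where 30.7% of all genes were called, and 2 with only the 2 groups fitted, where 18.5% were. With the replicate block 5 members were called higher and 1 lower. Camp was 701, 3730, 1206 and 12199 CPM in WT libraries, and late neutrophil and precursor sums were higher in WT than in LAG-3-high libraries except for the precursor sum of WT replicate 1, at 0.203 CPM. The part of neutrophil RNA in these differences was not tested.

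The abundant members that were not called between LAG-3-high and WT had log2 fold changes of 0.53 for Cdk2, -1.6 for Ccne2, 0.36 for Mcm3, -0.08 for Rrm1, -1.84 for Rrm2 and -0.48 for Stmn1. For mitosis genes these were -1.49 for Ccnb1, -1.94 for Ccnb2, -1.9 for Cdc20, -1.02 for Birc5, -0.68 for Spc25, -1.04 for Cenpe, -0.38 for Prc1 and 0.51 for Kif11. Both comparisons with WT use the same 4 WT libraries, and each comparison in this experiment shares a group with the others.

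Replication and mitosis genes were also compared as levels within each library, as the mean log2(CPM + 1) of the 17 and of the 25 genes. The difference of the 2 means is used only between libraries, since its 0 has no meaning. The mitosis mean was 4.51, 5.64, 4.95, 4.92 and 1.87 in LAG-3-low, 0.89, 3.18, 0.78, 2.81 and 2.07 in LAG-3-high and 0.59, 1.17, 4.09 and 0.85 in WT libraries. The replication mean was 4.65, 5.18, 5.35, 5.56 and 4.14 in LAG-3-low, 3.32, 3.24, 3.17, 3.92 and 3.11 in LAG-3-high and 2.43, 4.16, 2.57 and 3.38 in WT libraries. In each of the 3 groups the replication mean had the smaller spread, and its values in the LAG-3 fractions did not overlap. The difference was 0.60 ± 1.02 (SD, n = 5) in LAG-3-low, 1.41 ± 1.01 (SD, n = 5) in LAG-3-high and 1.46 ± 2.04 (SD, n = 4) in WT libraries, with overlapping ranges. WT replicate 3 had a difference of -1.52 against 1.84, 2.99 and 2.54 in the other WT libraries. It held 142 CPM Cdc20, 108 CPM Ccnb2 and 89.1 CPM Ccnb1, genes of mitosis. Its S phase genes were mixed, with Mcm3 at 59.4, Mcm6 at 34.2 and Rrm1 at 31.9 CPM and Rrm2 and Cdc45 at 0 CPM. Rrm2 was also at 0 CPM in WT replicate 1 and Cdc45 in WT replicate 4.

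**Figure D3:**
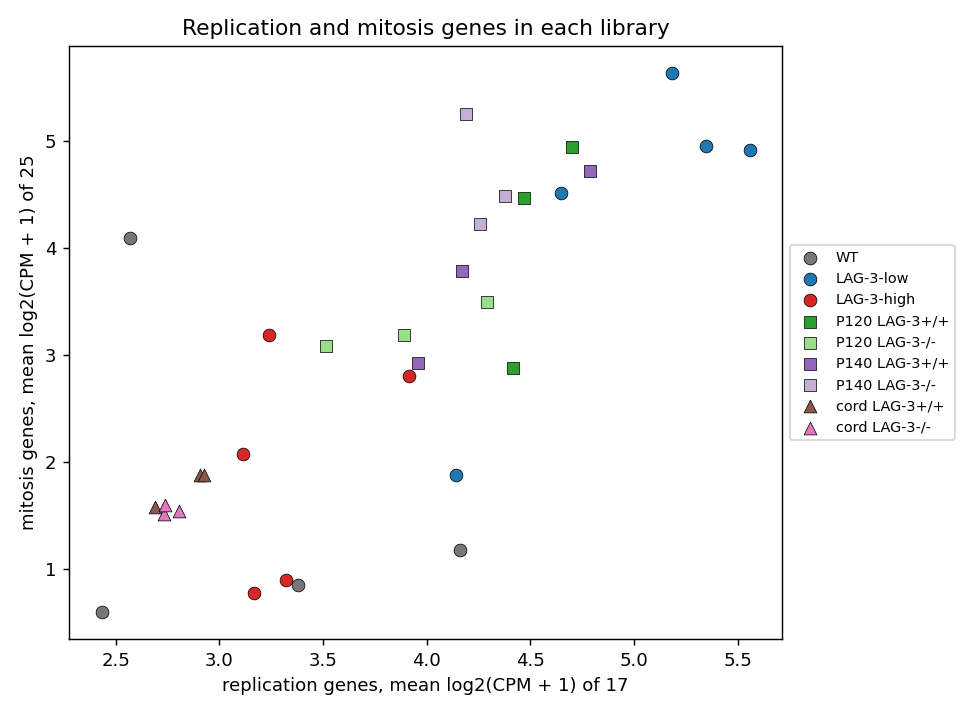
Mean log2(CPM + 1) of the 25 mitosis genes against that of the 17 replication genes, with one point for each of the 32 libraries, coloured by group. Mitosis means range from 0.59 in a WT library to 5.64 in a LAG-3-low library, WT replicate 3 lies apart at 2.57 and 4.09, and the cord libraries form a tight cluster near 2.8 and 1.7.

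In the stage experiment the first question was how microglia of LAG-3+/+ mice differ between the earlier and the later stage. Members were called in both directions, in each less often than all genes. At P140 compared with P120, 2 of the 53 were called higher and 3 lower, against 27.4% of all genes called, 11.9% higher and 15.5% lower. Pcna was 91.5, 87.8 and 85.4 CPM at P120 and 167, 272 and 184 CPM at P140, without overlap, a log2 fold change of 1.23 (SE 0.25, edgeR adjusted p = 0.00928). Stmn1, for the microtubule destabiliser stathmin, was 122, 62.9 and 118 CPM at P120 and 235, 175 and 273 CPM at P140, a log2 fold change of 1.18 (SE 0.35, edgeR adjusted p = 0.0392). Every P140 library exceeded every P120 library for both genes. Mki67 was 51, 24.7 and 63.3 CPM at P120 and 12, 3.07 and 3.65 CPM at P140, and fell by 2.89 on the log2 scale (SE 0.75, edgeR adjusted p = 0.0222). Top2a was 98, 57.3 and 105 CPM at P120 and 17.4, 6.93 and 29.4 CPM at P140, a log2 fold change of -2.28 (SE 0.71, edgeR adjusted p = 0.0456). The groups did not overlap for Mki67 or Top2a. Bub1b, of the spindle checkpoint, was 34.7, 12.9 and 20.2 CPM at P120 and 12.7, 4.94 and 3.5 CPM at P140, all P140 libraries lying below all P120 libraries, with a log2 fold change of -1.68 (SE 0.66, edgeR adjusted p = 0.0983).

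The other mitosis genes were not called. Cdk1, the kinase that drives entry into mitosis, was 39.5, 31 and 44.5 CPM at P120 and 66.4, 19.3 and 57.1 CPM at P140. Ccnb1, which encodes its partner cyclin B1, was 62.9, 12.6 and 57.1 CPM at P120 and 59.9, 21.1 and 48.6 CPM at P140. Both ranges overlapped. The log2 fold changes were 0.31 for Cdk1, -0.03 for Ccnb1, 0.62 for Cdc20, 0.46 for Birc5, -1.17 for Cenpe, 0.89 for Spc25, -1.28 for Prc1 and -1.5 for Kif20a, none called. For the abundant genes of earlier phases they were -0.65 for Mcm3, 0.62 for Mcm5, -0.40 for Rrm1, 0.28 for Tyms, 0.33 for Cdk2 and 0.64 for Ccne2, and 0.89 for Hmgb2. Mcm5 was 26, 24.7 and 33.2 CPM at P120 and 56, 24.1 and 48.4 CPM at P140, with overlap. The median log2 fold change was 0.11 over the replication and -0.17 over the mitosis genes.

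The changes ran with transcript length. Over the 53 members, Spearman's rho between log2 fold change and length was -0.559 from P120 to P140 in LAG-3+/+ microglia, against -0.258 over all genes, whose median change went from 0.43 at 1 to 2 kb to -1.10 over 6 kb. The 26 members with a negative change had a median length of 4040.5 bases and the 27 with a positive change 2331 bases. These correlations are across genes, which are not independent replicates. A correction for length and GC content was added after the data were seen. With it, 3 members were called, and the log2 fold changes were 0.62 for Pcna, -2.12 for Mki67, 1.11 for Mcm5 and -1.74 for Top2a. The first 2 kept their calls, Mcm5, which DESeq2 and the fit without P140 LAG-3+/+ replicate 2 also called, was called higher, and Top2a, Stmn1 and Bub1b were no longer called. The call count was 3 without P120 LAG-3+/+ replicate 3 or without P140 LAG-3+/+ replicate 3, 10 without P140 LAG-3+/+ replicate 1 and 10 with DESeq2, which called 35.6% of all genes. Bub1b kept its call in 3 of the 12 fits that left out 1 library. Without TMM scaling the median of all genes moved to -0.70 and 9 members were called, 8 of them lower. The 3 P140 LAG-3+/+ libraries and P140 LAG-3-/- replicate 1 also had the fewest genes with a count, 18896 to 20489 against 23459 to 24942 in the other 8 libraries of the experiment, and these 4 held the lowest Mki67. The late neutrophil sum was 2076, 2550 and 1720 CPM at P120 and 3425, 665 and 3.84 CPM at P140, and the precursor sum 332, 129 and 82.2 CPM and 213, 2.27 and 0.0768 CPM. The part of these differences in the result was not tested.

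**Figure D4:**
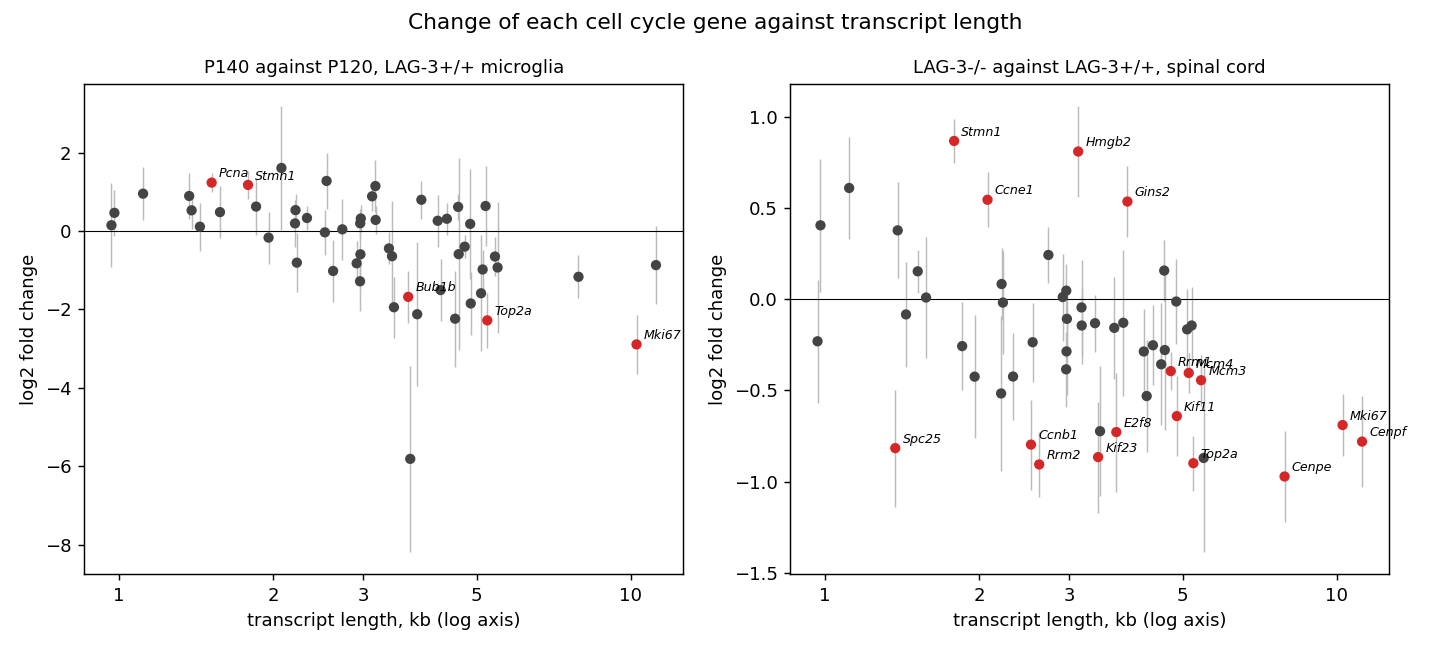
Log2 fold change of each of the 53 genes against its transcript length in kb on a log axis, from P120 to P140 in LAG-3+/+ microglia on the left and for the knockout in cord on the right. Grey bars are standard errors and members with an adjusted p under 0.1 are named in red, and longer genes tend to lie lower in both panels (rho = -0.559 and -0.442).

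In LAG-3-/- microglia the mitosis genes had positive log2 fold changes from P120 to P140, but no member was called. With edgeR 0 of 53 were called, 17 had an unadjusted p under 0.05 and DESeq2 called 9, all higher, against 0.0% of all 18669 genes called by edgeR, 8.88% at an unadjusted p under 0.05 and 2.41% called by DESeq2. Of the members 48 were positive, including all 25 mitosis genes, whose median log2 fold change was 1.54 against 0.42 over the 17 replication genes. The groups did not overlap for 24 members, all higher at P140, 18 of them mitosis genes, against 7.38% of all genes. Cdk1 was 12, 18.1 and 13.6 CPM at P120 and 86.2, 73 and 48.7 CPM at P140, a log2 fold change of 2.25 (SE 0.43, edgeR adjusted p = 0.475). Ccnb1 was 8.78, 11.3 and 4.81 CPM at P120 and 78.8, 93.5 and 46.1 CPM at P140, a log2 fold change of 3.13 (SE 0.63, edgeR adjusted p = 0.475). All P140 libraries exceeded all P120 libraries for both genes. Mki67 was 16, 42.7 and 30.7 CPM at P120 and 15, 95.8 and 47.5 CPM at P140, and Top2a was 32.1, 27.1 and 14.6 and 14.2, 125 and 68.2 CPM. For these the first P140 library lay just below the lowest at P120, and the ranges overlapped. Pcna was 79.1, 73.3 and 46.4 CPM at P120 and 142, 104 and 121 CPM at P140, and Mcm5 was 19.7, 15 and 22.8 and 30.8, 24.9 and 39.3 CPM, without overlap for either.

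The same comparison gave log2 fold changes of 1.82 for Stmn1, 1.82 for Hmgb2, 1.98 for Birc5, 1.97 for Cdc20, 1.82 for Cenpe, 1.35 for Spc25, 1.91 for Kif20a and 1.47 for Prc1. They were -0.02 for Mcm3, 0.22 for Rrm1, 0.65 for Tyms, 0.06 for Cdk2 and 0.66 for Ccne2. The late neutrophil markers summed to 6.57, 4.51 and 2.68 CPM in the P120 LAG-3-/- libraries and to 4.02, 841 and 4570 CPM in the P140 LAG-3-/- libraries. Precursor sums were 0, 0.0329 and 0.125 CPM at P120 and 0, 49.2 and 338 CPM at P140, and monocyte sums 154, 278 and 85.9 and 66, 403 and 826 CPM. The second and the third P140 libraries were the higher for all 3 lists, and their part in the result was not tested.

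Each group of the stage experiment enters more than one comparison, so that these share libraries. At P120, LAG-3-/- and LAG-3+/+ microglia were compared to ask what LAG-3 loss does at the earlier stage. No member was called by edgeR, 7 had an unadjusted p under 0.05 and DESeq2 called 1, against 0.0107% of all genes called by edgeR, 2.95% at an unadjusted p under 0.05 and 0.718% called by DESeq2. The log2 fold change was negative for 50 of 53 members, with a median of -1.01, and the groups did not overlap for 14, all lower in LAG-3-/- microglia, against 6.63% of all genes. From the values given above, Top2a was lower in every LAG-3-/- library than in any LAG-3+/+ library, a log2 fold change of -1.82 (SE 0.70, edgeR adjusted p = 1). The same held for Cdk1, at -1.4, Ccnb1, at -2.41, Hmgb2, at -1.15, and Pcna, at -0.41. Mki67, at -0.64, overlapped. Further log2 fold changes were -0.55 for Mcm5, -0.30 for Mcm3, -0.30 for Rrm1, -0.29 for Tyms, -0.20 for Cdk2, -1.09 for Ccne2 and -0.57 for Stmn1. For mitosis genes they were -1.42 for Cdc20, -1.14 for Birc5, -1.47 for Cenpe, -0.46 for Spc25, -1.49 for Prc1 and -1.41 for Kif20a. Neutrophil markers moved the same way. The late markers summed to 2076, 2550 and 1720 CPM in LAG-3+/+ and to 6.57, 4.51 and 2.68 CPM in LAG-3-/- libraries, where 4 of the 10 were at 0 throughout. The precursor markers summed to 332, 129 and 82.2 CPM in LAG-3+/+ and to 0, 0.0329 and 0.125 CPM in LAG-3-/- libraries, where 7 of the 8 were at 0 throughout. The monocyte sums overlapped, at 430, 214 and 149 and at 154, 278 and 85.9 CPM. The part of these markers in the result was not tested.

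At P140, 2 members were called higher in LAG-3-/- than in LAG-3+/+ microglia and 1 lower, against 10.2% of all genes called, 7.22% higher and 3.0% lower. Mki67 was 15, 95.8 and 47.5 CPM in LAG-3-/- and 12, 3.07 and 3.65 CPM in LAG-3+/+ libraries, a log2 fold change of 3.08 (SE 0.75, edgeR adjusted p = 0.0496). Bub1 was 13.6, 33.8 and 11.8 CPM in LAG-3-/- and 3.53, 1.88 and 1.61 CPM in LAG-3+/+ libraries, a log2 fold change of 3.07 (SE 0.82, edgeR adjusted p = 0.0605). Every LAG-3-/- library exceeded every LAG-3+/+ library for both. Pcna was the member called lower, with 142, 104 and 121 CPM in LAG-3-/- and 167, 272 and 184 CPM in LAG-3+/+ libraries, a log2 fold change of -0.76 (SE 0.25, edgeR adjusted p = 0.0988). Top2a was not called, at 1.95 (SE 0.70, edgeR adjusted p = 0.126), and its first LAG-3-/- library, at 14.2 CPM, lay within the LAG-3+/+ range. The median was 0.65 over the mitosis genes and 0.05 over the replication genes. Values for abundant members were -0.44 for Mcm5, 0.33 for Mcm3, 0.32 for Rrm1, 0.08 for Tyms, -0.47 for Cdk2, -1.06 for Ccne2, 0.07 for Stmn1 and -0.21 for Hmgb2. For mitosis genes they were 0.54 for Cdk1, 0.75 for Ccnb1, -0.08 for Cdc20, 0.38 for Birc5, 1.52 for Cenpe, 0.00 for Spc25, 1.25 for Prc1 and 2.0 for Kif20a, none called.

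These calls depended on single libraries. No member was called without P140 LAG-3+/+ replicate 2 or 3, without P140 LAG-3-/- replicate 2 or 3, or with only the 2 groups fitted, where 0.0% of all genes were called, while 9 were called without P140 LAG-3+/+ replicate 1 and 5 without P140 LAG-3-/- replicate 1. DESeq2 called 7, and 22.9% of all genes. Without TMM scaling the median of all genes was 0.47. The relation to transcript length was reversed here, with rho 0.361 over the members and 0.253 over all genes, and after the correction 2 members were called higher and none lower. Late neutrophil sums were 3425, 665 and 3.84 CPM in the LAG-3+/+ and 4.02, 841 and 4570 CPM in the LAG-3-/- libraries at P140, precursor sums 213, 2.27 and 0.0768 and 0, 49.2 and 338 CPM, and monocyte sums 258, 34.7 and 56.3 and 66, 403 and 826 CPM. Their ranges overlapped, and the second and the third LAG-3-/- libraries, which were the highest for Mki67, were also higher than the first for all 3 sums. The part of these markers in the calls was not tested.

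The genotype by stage interaction asked whether the change from P120 to P140 differed between genotypes. With edgeR 0 members were called, 11 had an unadjusted p under 0.05 and DESeq2 called 8, all higher, against 0.171% of all genes called by edgeR, 13.6% at an unadjusted p under 0.05 and 6.97% called by DESeq2. The interaction was positive for 48 of 53 members and for all 25 mitosis genes, with a median of 1.94 over mitosis and 0.62 over replication genes. The smallest adjusted p-values were those of Cenpe, Top2a, Ccnb1, Mki67 and Bub1, with log2 interaction terms of 2.99, 3.77, 3.17, 3.71 and 3.69 (edgeR adjusted p = 0.185, 0.185, 0.185, 0.189 and 0.22). Pcna and Mcm5 had values of -0.35 and 0.11. The interaction also ran with transcript length, with rho 0.348 over the members and 0.223 over all genes. The median of all genes went from -0.22 at 1 to 2 kb to 0.81 over 6 kb. Transcripts of Mki67, Cenpe and Top2a have 10270, 7910 and 5247 bases, those of Bub1 and Ccnb1 3448 and 2527 bases. With length and GC content corrected for, rho over the members was 0.101. Without P140 LAG-3+/+ replicate 1 or P140 LAG-3-/- replicate 1, 3 and 7 members were called, and 1.94% and 8.35% of all genes. The difference between replication and mitosis means was 0.43 ± 0.96 at P120 and 0.50 ± 0.49 at P140 in LAG-3+/+ microglia and 0.64 ± 0.19 at P120 and -0.38 ± 0.60 at P140 in LAG-3-/- microglia (SD, n = 3 each). The P140 LAG-3-/- libraries, at 0.03, -1.07 and -0.10, lay below the P120 LAG-3-/- libraries at 0.79, 0.71 and 0.43.

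**Figure D5:**
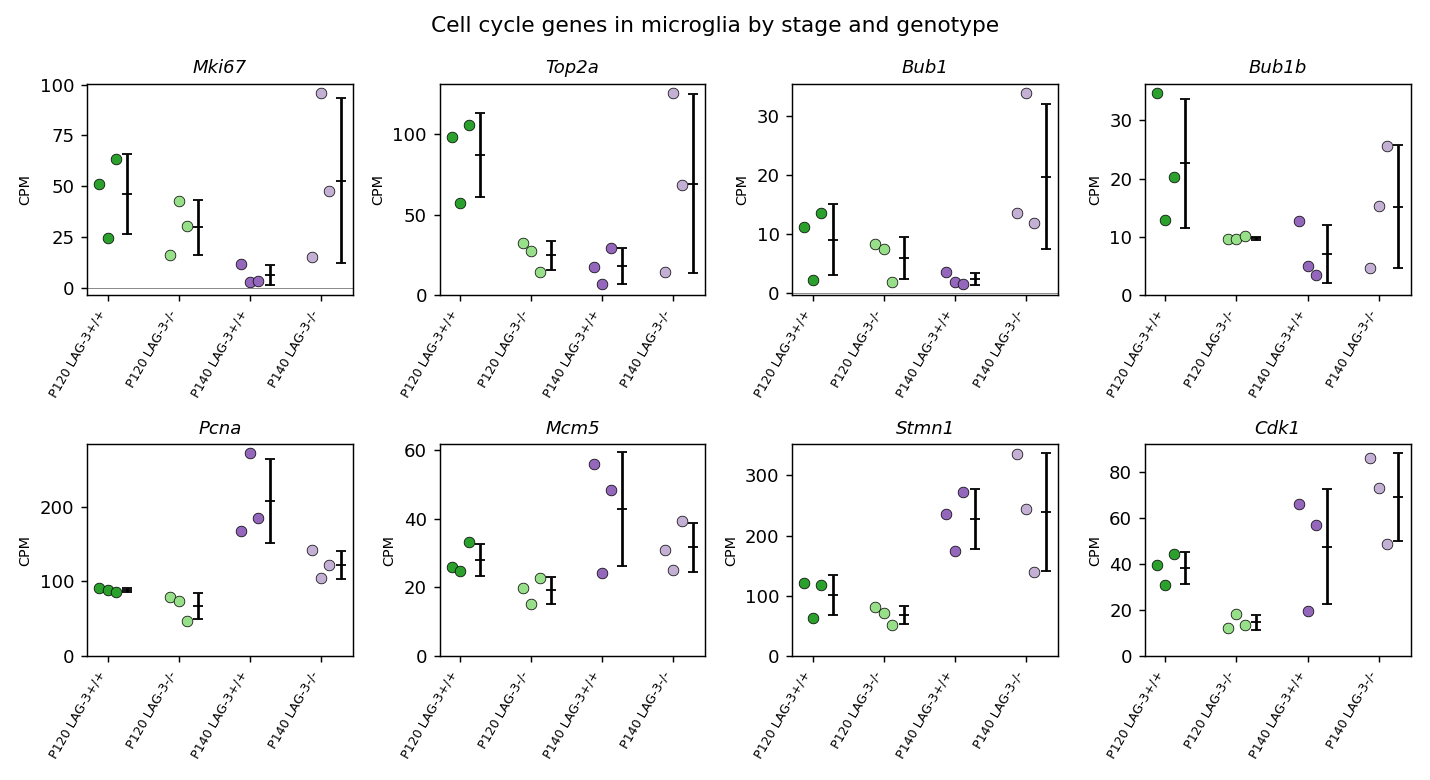
CPM of Mki67, Top2a, Bub1, Bub1b, Pcna, Mcm5, Stmn1 and Cdk1 in microglia of the 4 genotype and stage groups, with one point for each library and the mean with its SD beside the points. Mki67 and Top2a have their lowest means in P140 LAG-3+/+ and their widest spread in P140 LAG-3-/- libraries, at 15, 95.8 and 47.5 CPM for Mki67.

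In whole cord at P140, where microglial markers summed to 674 to 1064 CPM, cell cycle genes were low and their replicates close. By the rule with a minimum fold, edgeR called 0 of 53 members, 17 had an unadjusted p under 0.05 and DESeq2 called 0, against 7.52% of all genes called by edgeR, 47.7% at an unadjusted p under 0.05 and 7.18% called by DESeq2. By adjusted p alone, a rule added after the data were seen, 4 members were higher and 13 lower in LAG-3-/- cord, against 47.1% of all genes, 23.1% higher and 23.9% lower. The groups did not overlap for 5 members higher and 12 lower, against 25.4% and 26.1% of all genes. The 13 included 6 mitosis genes, 4 replication genes, E2f8, Mki67 and Top2a. Mki67 was 9.48, 7.9 and 10.2 CPM in LAG-3+/+ and 5.2, 5.42 and 6.49 CPM in LAG-3-/- cord, a log2 fold change of -0.69 (SE 0.17, edgeR adjusted p = 0.00841). Top2a was 11.8, 10.2 and 11.8 CPM in LAG-3+/+ and 5.54, 6.29 and 6.24 CPM in LAG-3-/- cord, a log2 fold change of -0.90 (SE 0.15, edgeR adjusted p = 0.00113). Neither pair of groups overlapped. Rrm2, which with Rrm1 makes deoxynucleotides, was 7.09, 6.1 and 7.21 CPM in LAG-3+/+ and 3.6, 4.01 and 3.25 CPM in LAG-3-/- cord, a log2 fold change of -0.91 (SE 0.18, edgeR adjusted p = 0.00256). Stmn1, which neurons also express, was 190, 203 and 212 CPM in LAG-3+/+ and 412, 359 and 333 CPM in LAG-3-/- cord, a log2 fold change of 0.87 (SE 0.12, edgeR adjusted p = 0.000551). All LAG-3-/- libraries were higher for Stmn1. Neuronal markers summed to 1983 to 2663 CPM in LAG-3+/+ and 2575 to 2985 CPM in LAG-3-/- cord, with overlap. Of these markers Tubb3 was at 0.82, Snap25 at 0.22, Chat at 0.05, Rbfox3 at -0.07 and Syt1 at -0.13.

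The other members past the adjusted p in cord were Hmgb2, Ccne1 and Gins2, at 0.81, 0.54 and 0.53, and Cenpe, Kif23, Spc25, Ccnb1, Cenpf, E2f8, Kif11, Mcm3, Mcm4 and Rrm1, between -0.97 and -0.39. Pcna was 48.9, 42.9 and 50.7 and 59.9, 51.5 and 47 CPM and Mcm5 6.57, 5.11 and 5.81 and 6.17, 6.52 and 6.79 CPM in LAG-3+/+ and LAG-3-/- cord, with overlap and log2 fold changes of 0.15 and 0.16. E2f1, Foxm1, Ccna2, Bub1b, Cdc20, Nuf2, Tpx2 and Prc1 were at 0.24, -0.17, -0.29, -0.16, -0.26, -0.24, -0.29 and -0.38. The change again ran with transcript length, with rho -0.442 over the members and -0.556 over all genes, whose median went from 0.56 under 1 kb to -0.50 over 6 kb. With length and GC content corrected for, 3 members were higher and 4 lower by adjusted p alone. Top2a was then at -0.52, Rrm2 at -0.95, Stmn1 at 0.57 and Mki67 at 0.02, so that Mki67 no longer passed. Among cell markers, microglia summed to 805 to 1064 CPM in LAG-3+/+ and 674 to 984 CPM in LAG-3-/- cord, monocytes to 131 to 175 and 74.7 to 90.8 CPM, and astrocytes to 12759 to 14592 and 7385 to 11933 CPM. Oligodendrocyte precursor markers summed to 556 to 624 and 588 to 696 CPM, and late neutrophil markers to 8.38 to 11.8 and 9.79 to 27.7 CPM. Precursor markers summed to 0.558 to 0.662 and 1.15 to 4.24 CPM, erythroid markers to 12.7 to 32.7 and 32.8 to 165 CPM and endothelial markers to 138 to 147 and 106 to 123 CPM. The sums of these 3 lists did not overlap, nor did those of monocytes and astrocytes. Genes within the endothelial, monocyte and astrocyte lists differed. Cldn5 was at 0.50, against -0.69 for Flt1, -0.43 for Kdr, -0.29 for Pecam1 and -0.11 for Cdh5. Fn1, at a mean of 118 CPM, made up most of the monocyte sum. Of the astrocyte genes Aqp4 was at -0.99, Slc1a2 at -0.85, Gja1 at -0.44, Gfap at -0.33 and Aldh1l1 at -0.07. With length and GC content corrected for, Aqp4 was at -0.60 and Slc1a2 at -0.05. The highest erythroid and late neutrophil sums, 165 and 27.7 CPM, were both from LAG-3-/- replicate 2. The neutrophil genes Prtn3 and Ngp were called higher, at 1.78 and 2.29 on the log2 scale, at mean levels of 0.87 and 1.25 CPM. The groups overlapped for Ngp. Lcn2, of the late list, was at -0.70, and Mmp9, S100a8 and S100a9 were positive, none of them called. The part of these markers in the changes was not tested.

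Other genes of the same pathways were counted from 3 wider lists of 51 replication, 57 mitosis and 27 G1 entry and brake genes, with log2 fold changes given for those called with the smallest adjusted p. Between the LAG-3 fractions, 3, 3 and 2 of them were called lower in LAG-3-high microglia and none higher, against 2.67% of all genes called lower. The replication genes were the histone chaperone Asf1b at -3.95, the origin kinase Cdc7 at -2.54 and Rmi2 at -1.92. The mitosis genes were the checkpoint kinase Ttk at -7.2, the cyclin-dependent kinase subunit Cks2 at -1.98 and the condensin subunit Smc4 at -2.3. The others were the inhibitor Cdkn2d at -2.41 and Ccnd3, for cyclin D3, at -2.69.

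In LAG-3-low compared with WT microglia 8, 15 and 7 of the wider lists were called higher and 1, 1 and 2 lower, against 10.9% and 11% of all genes. Chek1 and Orc1, of the replication checkpoint and of origin recognition, were at 7.42 and 6.46, and Brca1, of repair, was at 0 in all 4 WT libraries and at 5.59, 12.1, 3.92, 7.64 and 12.7 CPM in LAG-3-low libraries. Cdc25b, a phosphatase that activates mitotic kinases, was at 0 in all 4 WT libraries and at 4.21, 10.5, 10.8, 13.6 and 3.48 CPM in LAG-3-low libraries. Cdca2 and Ttk, of mitosis, were at 6.6 and 8.91, and the inhibitors Cdkn1a and Cdkn2d and the G1 kinase Cdk6 at 2.04, 1.56 and 1.15. In LAG-3-high compared with WT 3, 8 and 6 were higher and 4, 3 and 4 lower, against 12.1% and 14.9% of all genes. Chek1, Rmi2 and Rpa3 were at 6.62, -2.29 and -2.17, Cks2 at -2.45, and Cdk4, Rb1 and Ccnd2 at 1.12, -1.48 and -6.7. Cdc25b and the kinesin gene Kif18b, both at 0 in all WT libraries, were at 3.94, 2.33, 1.91, 5.17 and 6.26 CPM and at 0, 4.73, 0, 3.9 and 2.89 CPM in LAG-3-high libraries. Chek1, Orc1 and Ttk were close to 0 in the WT libraries, so that the size of their fitted changes is uncertain.

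From P120 to P140 in LAG-3+/+ microglia 11, 3 and 2 of the wider lists were higher and 3, 3 and 4 lower, against 11.9% and 15.5% of all genes. The clamp loader subunits Rfc2 and Rfc3 were at 0.78 and 1.3 and the polymerase subunit Pold1 at -2.15. The kinetochore gene Ska3 was at -5.1, securin (Pttg1) at 1.46 and H2az1 at 1.24, and Cdk6, the pocket protein gene Rbl2 and Myc were at -1.89, -2.74 and 0.93. For the knockout at P140, 2, 3 and 3 were higher and 3, 2 and 1 lower, against 7.22% and 3.0% of all genes, with Rfc2 at -0.66, Pold1 at 1.77, Tipin at -1.32, Ska3 at 4.39, Pttg1 at -1.18, Hjurp at 1.77, Rbl2 at 2.59, Cdk6 at 1.5 and Rb1 at 1.29. In LAG-3-/- microglia from P120 to P140 and for the knockout at P120, edgeR called 0 of these genes, with 6, 13 and 4 at an unadjusted p under 0.05 in the first and 6, 6 and 3 in the second, against 8.88% and 2.95% of all genes, and 1, Ska3, was called for the interaction. In cord 0, 0 and 1 were higher and 1, 4 and 0 lower, against 4.37% and 3.15% of all genes, with Clspn, of the replication checkpoint, at -1.0, the spindle genes Ckap2, Aspm and Knl1 at -1.14, -1.29 and -1.08, and the inhibitor Cdkn1c at 1.03.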

How the data were processed

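The libraries were prepared with a SMART-seq mRNA kit per the labels, and the study's methods name a stranded kit for cord. Values are estimated counts per gene, deposited by the authors, who trimmed reads with Trim Galore (version 0.6.7), quantified transcripts of GRCm39 with Salmon (version 1.9.0) and summed them to genes with tximport in R (version 4.2.1). The annotation release is not given in the sources used here. Salmon divides reads that fit several genes, so that levels of close copies are uncertain.

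Groups follow the labels. Estimated counts were rounded to whole numbers, genes were kept with filterByExpr (minimum count 10, minimum total 15), and 9 comparisons were tested with edgeR (version 4.0.16, R 4.3.3) by robust quasi-likelihood F-tests with TMM factors and Benjamini-Hochberg adjustment, all groups of a table sharing one fit. The stage model held genotype, stage and their interaction. No minimum fold was set for it, following the study. DESeq2 (version 1.42.0) was an alternative, as were other scalings, filters and thresholds, a replicate block, sex from the paper's sample table, fits of only the groups compared and leaving out each library. The edgeR fit was tested on simulated counts. Gene names, positions and lengths are from GENCODE vM39, promoters from RefSeq on GRCm38.p6.

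The members, roles and lists were chosen with earlier results of these data known. A further microglial marker is not reported here. Genes named are, per role and table, the 2 with the highest mean CPM, the 5 called with the smallest adjusted p per comparison, those called against the prevailing direction, and Mki67, Top2a, Pcna and Mcm5. Of the wider lists, called genes with the smallest adjusted p are named, up to 3 per list. The remaining called members, both members that were positive between the LAG-3 fractions, WT replicate 3's genes and the members past the adjusted p alone in cord were named after their values were seen.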

Additional observations from a re-analysis of the deposited data

Results flagged for a closer look

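Among 21 sets of values examined for a library far from the rest of its group, of which chance alone sets apart about 1 in 20, 4 values stood out, and they come from 2 libraries. WT replicate 3 had 48.9 CPM Top2a against at most 0.869 CPM in the other WT libraries, and a mean log2(CPM + 1) of 4.09 over the 25 mitosis genes against at most 1.17. Its late neutrophil sum of 9372 CPM and precursor sum of 410 CPM were within the ranges of the other WT libraries, 5931 to 70238 CPM and 0.203 to 2991 CPM. LAG-3-high replicate 4 had 17 CPM Mcm5 against 14.6 to 15.3 CPM in the other libraries of its fraction, which is far only beside their narrow spread. Its mean over the 17 replication genes, of which Mcm5 is 1, was 3.92 against at most 3.32. The part of either library's preparation in these values was not tested.

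The change from P120 to P140 differed between genotypes for 1 gene of the wider lists, the kinetochore gene Ska3. It was 11.3, 5.14 and 9.15 CPM at P120 and 0.539, 0.114 and 0.0768 CPM at P140 in LAG-3+/+ microglia, and 1.25, 1.88 and 2.3 CPM at P120 and 4.53, 7.39 and 3.69 CPM at P140 in LAG-3-/- microglia, with a log2 interaction term of 6.62 (SE 1.13, edgeR adjusted p = 0.0908).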

How the results depend on the processing

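Whether the replicate numbers of the labels pair the libraries is not known. The correlation of deviations between same-numbered libraries lay between -0.0215 and 0.0674 over 13 pairs of LAG-3-sorted libraries. It lay between -0.119 and 0.0662 over 18 pairs in the stage experiment and between -0.0300 and 0.0223 over 3 pairs in cord. Between the LAG-3 fractions its mean was 0.032 for the same number and -0.008 for different numbers. Values this close to 0 cannot decide whether 2 libraries share an animal. With a replicate block the members called numbered 6 between the LAG-3 fractions, 6 for LAG-3-high and 12 for LAG-3-low against WT, 5 from P120 to P140 in LAG-3+/+ microglia and 0 in the other 5 comparisons, so that all 3 calls of the knockout at P140 ended.

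Of the 6 members called between the LAG-3 fractions, counts were 20 with DESeq2, 16 without TMM factors, 36 with only the groups compared, 13 with the length and GC correction added after the data were seen, and 4 to 15 with 1 library left out. Hmgb2, E2f7, Mybl2 and Spc24 kept their calls in every alternative run. For LAG-3-high against WT the 9 calls became 2 with only the groups compared and 6 to 15 without 1 library. For LAG-3-low against WT the 13 became 7 at an adjusted p under 0.05, 8 with only the groups compared and 7 to 22 without 1 library. From P120 to P140 in LAG-3+/+ microglia the 5 became 10 with DESeq2, 9 without TMM factors, 3 with the length and GC correction and 3 to 10 without 1 library. DESeq2 raised the count of 0 to 9 in LAG-3-/- microglia, to 1 for the knockout at P120 and to 8 for the interaction, where it was 1 with no filter and 0 to 7 without 1 library. For the knockout at P140 the 3 became 1 at an adjusted p under 0.05, 7 with DESeq2, 0 with only the groups compared and 0 to 9 without 1 library. In cord the 0 became 17 with no minimum fold, also added after the data were seen, 3 without TMM factors, 1 with no filter, 1 with the length and GC correction and 0 to 3 without 1 library.

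Signs turned for changes that were not called in the fit reported. For LAG-3-high against WT, Mki67 was -0.17 and Top2a -0.18 without TMM factors, with ranges of -0.74 to 0.95 and -0.40 to 5.54 when 1 library was left out. Top2a, at 5.54, was called higher without WT replicate 3, as it was for LAG-3-low against WT, at 8.36. In the same comparison Pcna was 0.0082 with the length and GC correction and -0.71 to 0.017 without 1 library, and Mcm5 was 0.011 with no filter, 0.28 with the replicate block, 0.11 with sex as a covariate and -0.50 to 0.53 without 1 library. Pcna for LAG-3-low against WT was 0.18 with the length and GC correction and -0.54 to 0.19 without 1 library. For the interaction, Pcna was 0.065 and Mcm5 -0.28 with that correction, and Mcm5 was -0.17 to 0.36 without 1 library. Foxm1 for the knockout at P120 was -0.11 to 1.52 without 1 library. In cord, with that correction, Mki67 was 0.019, having passed the adjusted p alone without it, and Pcna was -0.13.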
